A study of Mus musculus with 48 samples.

Results

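Fibronectin (gene symbol Fn1) and thrombospondin 1 (Thbs1) are secreted matrix glycoproteins, and their transcripts were followed through 8 cultured mouse mammary tumour lines and through the neutrophils and macrophages of 4 of the corresponding tumours. They are 2 of the 24054 genes in the count table. Both were chosen by their measured levels, which spanned wide ranges among the lines, and Fn1 also by its difference between the myeloid cells of AT3 and E0771 tumours. Those values are therefore given as descriptions, without a test. Tests are given for Thbs1 in the sorted cells, and for Fn1 in the contrasts that did not guide the choice. The Fn1 tests between cell types of AT3 and of E0771 tumours use libraries that did guide it.

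Fibronectin is a large dimer that cells assemble into fibrils by pulling on it through integrins, chiefly the alpha 5 beta 1 and alpha v integrins, and it is made by mesenchymal cells, by many carcinoma lines and by macrophages. Thrombospondin 1 is a trimeric protein stored in platelets and secreted by many activated cells. It binds CD47, CD36, LRP1 and calreticulin, can release TGF-beta from its latent complex, and is known as an inhibitor of blood vessel growth. Both genes are textbook targets of TGF-beta signalling, and Thbs1 is widely used as a target of the YAP and TEAD transcription factors.

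The study profiled total RNA of breast tumour lines grown in vitro and of myeloid cells sorted from tumours in mice. Each of the 16 groups had 3 libraries. Neutrophils were sorted as live CD45+ CD11b+ Ly6G+ cells with medium to low Ly6C, and macrophages as live CD45+ CD11b+ Ly6G- Ly6C- F4/80+ cells. The strain label is BALB/C for the lines T11, 2208L, 67NR and 4T1. For AT3, E0771, PyMT-N and PyMT-M it is C57BL/6. The sorted cells came from T11 and 2208L tumours (BALB/C) and from E0771 and AT3 tumours (C57BL/6), except that replicate 1 of the E0771 neutrophils and of the E0771 macrophages is labelled BALB/C. The labels used here name no genotype, treatment, time point or mouse age for any group. The E0771 line was grown in RPMI medium with HEPES and the other 7 lines in high-glucose DMEM, all with serum. The authors' column names mark 2208L, 4T1, AT3 and PyMT-N as Epi and T11, 67NR, E0771 and PyMT-M as Mes.

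In the mm10 build with the GENCODE M21 annotation, Fn1 (ENSMUSG00000026193.15) lies on the minus strand of chromosome 1 from 71585520 to 71653200, with 17 annotated transcripts that cover 11685 exon bases. It overlaps Apol7d on the opposite strand, which had at most 18 reads in any library. Thbs1 (ENSMUSG00000040152.8) lies on the plus strand of chromosome 2 from 118111876 to 118127133, with 2 transcripts and 6073 exon bases. It overlaps the antisense gene Gm29233, which has no row in the table. Whether the counting used strand is not given in the sources used here, so reads of a gene and of its antisense partner cannot be told apart.

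Counts summed to 2058329 to 6262942 in the lines, 669862 to 3341097 in the neutrophils and 1862321 to 6240372 in the macrophages. The ribosomal RNA gene Rn45s took 3.88% to 14.9%, 26.8% to 70.3% and 55.0% to 76.2% of them, and levels are given as counts per 1e6 counts outside it, after scaling by the trimmed mean of M values (normalised CPM, counts scaled to a fixed library size). Means are over 3 libraries with the SD. Olfactory and vomeronasal receptor genes, which should be silent in these cells, were summed as counts per 1e6 outside Rn45s without the trimmed mean scaling. They came to 605 to 2908 in the lines, 856 to 3204 in the macrophages and 3793 to 18599 in the neutrophils. Macrophage libraries held their 10 defining markers at a summed 5870 to 28270 normalised CPM, against 332 to 5987 in neutrophils and 43.3 to 92.7 in lines. Neutrophil markers summed to 1027 to 20310 in neutrophils, lowest in those of T11 tumours at 1027 to 3225. In macrophages they summed to 158 to 9002, of which Mmp9 made up 3087 to 8932 in the T11 macrophages. Without Mmp9 the other 9 markers summed to 39.6 to 315.5 in all macrophage libraries. Sorted cells are bulk samples, so fewer cells of a type and less RNA per cell cannot be told apart, and nothing says that replicates came from separate cultures or mice, so p-values measure only how libraries of a group vary, and that variation may be technical.

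Among the cultured lines, Fn1 was highest in 2208L and lowest in E0771 and PyMT-M, over a 330-fold range of group means. The 3 libraries of 2208L held 6830, 7716 and 7538 normalised CPM (7361 ± 469, SD). Those of PyMT-N held 3231, 3784 and 3938 (3651 ± 372). The 67NR line followed with 2041 ± 56.2, then 4T1 with 1171 ± 58.3. No library of these 4 lines overlapped a library of its neighbour in that order. AT3 (536, 601 and 734) and T11 (528, 633 and 549) overlapped each other. E0771 held 27.8, 28.8 and 19.5 normalised CPM and PyMT-M held 26.3, 19.3 and 21.2, again overlapping. Per kilobase, Fn1 in these last lines was 4.45 to 9.19 times the level of the silent receptor genes, and in 2208L 2147 to 2568 times.

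Thbs1 spanned 573-fold among the same lines, and no neighbours in its order overlapped. It was highest in 2208L (4068, 4527 and 4442 normalised CPM) and PyMT-N (2661, 3119 and 3466). The 4T1 line followed with 1267 ± 127, T11 with 548 ± 24.6, 67NR with 242 ± 5.97 and AT3 with 83.8 ± 13. E0771 held 9.66, 9.69 and 13.2 normalised CPM and PyMT-M 8.13, 8.06 and 6.57, from 25 to 38 and 13 to 17 reads a library. Those lowest levels were 3.06 to 5.96 times that of the silent receptor genes per kilobase. The pair of lines at the bottom was thus the same for both genes, and so was the pair at the top.

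**Figure D1:**
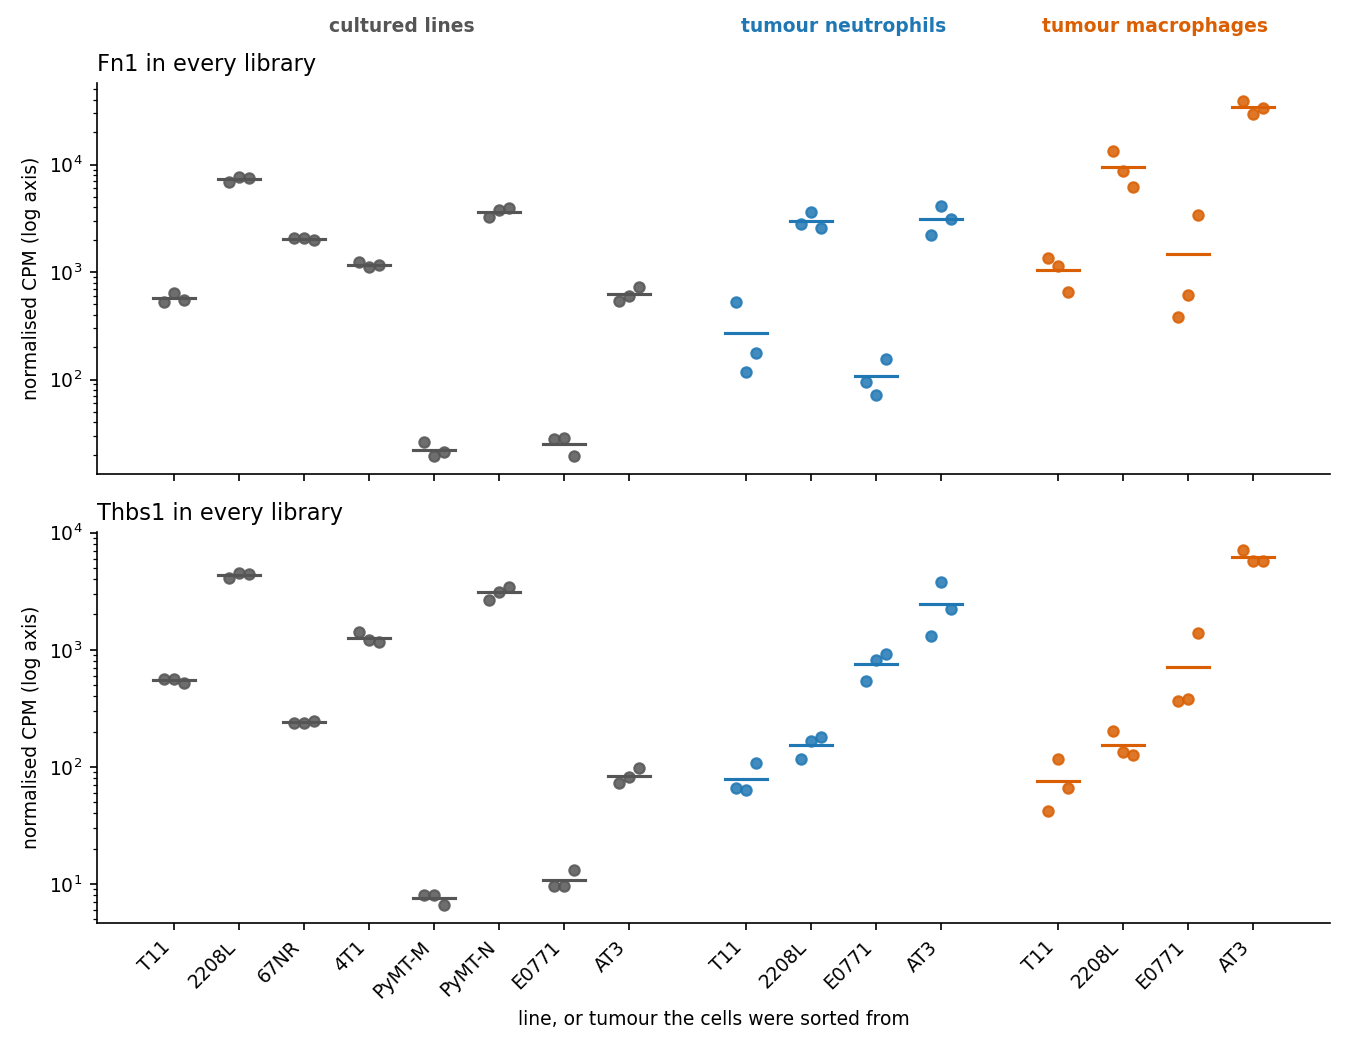
Fn1 (top) and Thbs1 (bottom) in each of the 48 libraries, as normalised CPM on a log axis. Points are libraries, horizontal bars are group means, and colours mark cultured lines, tumour neutrophils and tumour macrophages. PyMT-M and E0771 sit lowest for both genes among lines, and AT3 macrophages sit highest of all groups, at 34240 for Fn1 and 6198 for Thbs1.

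Lines that share a strain label differed widely. Fn1 stood at 164.5-fold and Thbs1 at 408.2-fold higher fitted levels in PyMT-N than in PyMT-M, and at 25.7-fold and 8.06-fold in AT3 over E0771. Fitted levels in 2208L were 12.9-fold those of T11 for Fn1 and 7.94-fold for Thbs1. The 4T1 and 67NR lines went opposite ways, with Fn1 at 1171 against 2041 normalised CPM and Thbs1 at 1267 against 242. Per kilobase, the ratio of Fn1 to Thbs1 was 4.39 ± 0.23 in 67NR and 3.87 ± 0.03 in AT3, against group means of 0.48 to 1.54 in the other 6 lines. So 67NR and AT3 held more Fn1 per Thbs1 than any other line.

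Over the 8 line means, log2 levels of Fn1 and Thbs1 had a Pearson correlation of 0.935. This describes 8 points of 1 table that share the depth and scaling of their libraries. The genes most like Fn1 among 2469 with a comparable range were Col8a1 (0.990), which encodes a short-chain collagen of vessel walls and corneas, Scamp1 (0.988), a carrier protein of secretory vesicles, Arsb, a lysosomal sulfatase, Hpcal1, a calcium sensor, and Chst2, a carbohydrate sulfotransferase (each 0.976). Thbs1 itself came 38th. The genes most like Thbs1 were Ankrd1 (0.982), a muscle ankyrin repeat protein and common YAP target, Efna5 (0.982), an ephrin ligand, Ankrd50 and Usp53 (each 0.978), and Irx2 (0.976), a homeobox factor. Col8a1 ranged from 4.85 normalised CPM in PyMT-M to 867 in 2208L, and Ankrd1 from 8.38 in E0771 to 607 in PyMT-N.

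Receptors for fibronectin were not at the bottom of the table in the lines that held little of it. Itgb1, the beta chain shared by most fibronectin-binding integrins, was at 1344 ± 59.7 normalised CPM in PyMT-M and 1497 ± 144 in E0771, against 3039 ± 14.9 in 2208L and 3240 ± 138 in PyMT-N. Itga5, its partner in the classical fibronectin receptor, was at 119 ± 17.7 in PyMT-M and 113 ± 4.50 in E0771 and at 58.7 ± 8.63 in 2208L. Of 18 genes for fibronectin receptors and assembly factors, 9 were higher and 3 lower in PyMT-N than in PyMT-M, by edgeR's quasi-likelihood test with Benjamini-Hochberg (BH) adjustment at 0.05, with a median log2 difference of 0.44 against -0.10 over all genes. In that comparison 23.3% of genes were called higher and 21.8% lower. Fbln2, a fibulin that binds fibronectin, was at 4161 ± 251 normalised CPM in the former line and 317 ± 59.4 in the latter.

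YAP target genes were counted in the same pairs of lines. All 11 YAP target genes measured were higher in PyMT-N than in PyMT-M (edgeR, BH-adjusted), with a median log2 difference of 1.81. Among them Ankrd1, Ctgf, a matricellular growth factor, and Cyr61, its relative, had differences of 6.18 ± 0.15, 5.39 ± 0.13 and 4.51 ± 0.11 (log2, SE). In 2208L against T11, 8 of the 11 were higher and 2 lower, with 22.5% and 19.1% of all genes called in those directions. In 4T1 against 67NR it was 7 and 2, with 22.1% and 25.4% of all genes. In AT3 against E0771, 1 of the 11, Ankrd1, was higher and 5 were lower, with 19% and 26.8% of all genes, while Thbs1 stood at 83.8 against 10.9 normalised CPM. The higher count was 2 without AT3 replicate 1 or 3 or E0771 replicate 1, 3 without E0771 replicate 2, and 2 with DESeq2 or its size factors, with Rn45s kept and with only these groups fitted. TGF-beta response genes in that pair were also lower, 8 of 12, with none higher and a median of -1.53, led by the smooth muscle actin Acta2 (-3.37 ± 0.14), the transcription factor Bhlhe40 (-2.88 ± 0.13) and Id1 (-2.83 ± 0.14). The other pairs differed from this. In PyMT-N against PyMT-M, 7 of the 12 were higher and 3 lower, with a median of 1.7 and 23.3% and 21.8% of all genes called. In 2208L against T11 it was 6 and 5, and in 4T1 against 67NR 6 and 3, with the shares of all genes given above.

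Collagens were lower in both lines with the highest Fn1 and Thbs1, when each was set against its partner. In 2208L against T11, 8 of 11 collagens were lower and 2 higher (edgeR, BH-adjusted), with a median log2 difference of -3.43, where 19.1% of all genes were called lower. The log2 differences of Col1a2, Col3a1 and Col6a3 were -6.39, -5.68 and -4.47. In PyMT-N against PyMT-M, 7 were lower and 2 higher (21.8% of all genes lower), with a median of -3.51. AT3 against E0771 had 3 higher and 4 lower, with 19% and 26.8% of all genes, and 5 higher with Rn45s kept or only these groups fitted. The 4T1 and 67NR pair had 2 higher and 5 lower, with 22.1% and 25.4% of all genes, and 1 higher without 4T1 replicate 2 or 3 or 67NR replicate 1 or 2. Thbs2, the closest relative of Thbs1, was at 249 ± 16.7 normalised CPM in T11 and 370 ± 50.3 in AT3, and at 6.86 to 20.4 in the other 6 lines. It was lower in 2208L than in T11 by 4.50 on the log2 scale (SE 0.14), with Thbs1 at 4346 against 548 normalised CPM.

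In macrophages of AT3 and 2208L tumours Fn1 was among the most abundant transcripts. AT3 macrophages held 39220, 29860 and 33630 normalised CPM (34240 ± 4710), which was 2.39% to 3.40% of the counts outside Rn45s and placed Fn1 6th to 11th of 22750 genes per kilobase. The 2208L macrophages held 13380, 8795 and 6231 (9470 ± 3624), placing Fn1 20th to 27th. T11 macrophages held 1360, 1141 and 648 (1050 ± 364). Fn1 placed 305th to 728th there, and 85th to 897th in E0771 macrophages. No library of AT3 overlapped 2208L, and none of 2208L overlapped T11.

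E0771 macrophages held 384, 616 and 3432 normalised CPM of Fn1, so replicate 3 stood apart by a factor of more than 5 from the nearer of its neighbours. Libraries of this group (mean 1477 ± 1697) overlapped those of T11. The mean in AT3 macrophages was 23.2-fold that in E0771, and 68.5-fold without E0771 replicate 3. That library also had higher levels of several other genes of these lists. Pf4, a chemokine of platelets and some macrophages, was at 733 against 417 and 252 normalised CPM, F13a1 at 485 against 188 and 136, and 7 dendritic cell markers summed to 475 against 133 and 323. Replicate 1, labelled BALB/C, held the lowest Fn1 of the group. The part of these in the Fn1 level was not tested.

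Fn1 was higher in 2208L than in T11 macrophages by 3.28 ± 0.47 (log2, SE; edgeR quasi-likelihood test, BH-adjusted p = 4.1e-06), where 16.8% of 13933 genes were called. The fold in fitted levels was 9.70. All alternatives kept it, with log2 differences from 3.00 to 3.48 on leaving out any of the 6 libraries. Epithelial markers also separated these groups, with 10 markers summed to 352 to 470 normalised CPM in 2208L and 21.8 to 36.2 in T11 macrophages. Krt8 was at 42.1 to 56.1 in 2208L macrophages and at 1437 to 1585 in the 2208L line, whose own Fn1 was at 7361. The part of tumour cell RNA in the Fn1 of the sort was not tested.

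Thbs1 had a different order in macrophages. It was at 7122, 5764 and 5707 normalised CPM in AT3, at 365, 377 and 1389 in E0771, at 201.5, 133.5 and 126 in 2208L and at 41.9, 117.5 and 66.3 in T11. Neighbouring groups did not overlap, and E0771 replicate 3 again stood apart. In AT3 macrophages Thbs1 placed 17th to 37th of 22750 genes per kilobase. Of the neighbouring means, those of AT3 and E0771 lay farthest apart, with a difference of 2.96 ± 0.37 (log2, SE; edgeR, BH-adjusted p = 1.1e-06), with 18.6% of genes called. Without E0771 replicate 3 it was 3.91.

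The 4 macrophage groups differed in Thbs1 by edgeR's F test (BH-adjusted p = 3.7e-14), where 37% of genes were called. In pairs across strains, which were added after the values were seen, AT3 stood above 2208L by 5.26 ± 0.41 (log2, SE; edgeR BH-adjusted p = 1.1e-10; 10.2% of genes called). E0771 stood above T11 by 3.44 ± 0.39 (edgeR BH-adjusted p = 6.8e-08; 29.3% called), and by 2.48 without E0771 replicate 3. AT3 and 2208L differ in tumour and in labelled strain together, which cannot be told apart. The same holds for E0771 and T11 but for E0771 replicate 1, labelled BALB/C as T11 is, without which the difference was 3.70. The difference between 2208L and T11 was smaller, at 1.14 ± 0.37 (edgeR BH-adjusted p = 0.030). It missed the threshold in 5 of the 6 fits that left out a library, with values of 0.82 to 1.21, and passed without T11 replicate 2 at 1.57. It also missed with DESeq2 (1.22, adjusted p = 0.117).

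So 2208L macrophages combined a high Fn1 level with a low Thbs1 level. Their ratio of Fn1 to Thbs1 per kilobase was 31.5 ± 5, against 9 ± 6.82 in T11, 2.87 ± 0.19 in AT3 and 0.89 ± 0.37 in E0771 macrophages. The cultured 2208L line had a ratio of 0.88 ± 0.01, with Thbs1 at 4346 normalised CPM, against 154 ± 41.6 in the macrophages of its tumour. AT3 showed the reverse for Thbs1, with 83.8 normalised CPM in the line and 6198 in the macrophages. The line and the sorted cells of a tumour were grown and collected differently, so these are values side by side.

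**Figure D2:**
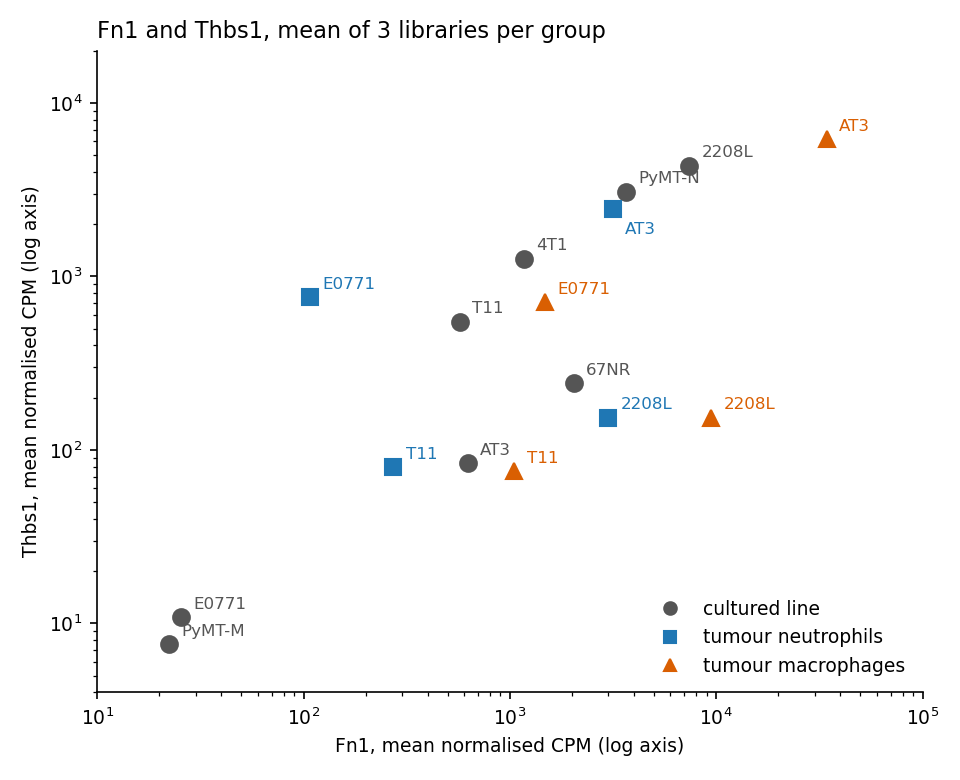
Mean Thbs1 level against mean Fn1 level in the 16 groups, as normalised CPM on log axes. Circles are cultured lines, squares tumour neutrophils and triangles tumour macrophages, each the mean of 3 libraries. The lines fall along a rising band (r = 0.935), while the 2208L macrophages and neutrophils lie to the lower right, with Thbs1 near 154 at Fn1 of 9470 and 2998.

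Neutrophils of AT3 and 2208L tumours held more Fn1 than those of T11 and E0771 tumours. AT3 neutrophils held 2200, 4138 and 3098 normalised CPM and 2208L neutrophils 2822, 3587 and 2584, and these groups overlapped. T11 neutrophils held 523, 118 and 177 and E0771 neutrophils 95.7, 72.2 and 154, overlapping again. Per kilobase, these lower levels were 7.38 to 40.25 times that of the silent receptor genes in T11 and 8.38 to 14.9 times in E0771 neutrophils. The mean in AT3 neutrophils was 29.3-fold that in E0771 (24.7 to 37.5 on leaving out any 1 library). The 10 macrophage markers summed to 1984 to 3484 normalised CPM in these AT3 neutrophils and 806 to 840 in those of E0771, and their part in that ratio was not tested. Fn1 was higher in 2208L than in T11 neutrophils by 3.24 ± 0.65 (log2, SE; edgeR, BH-adjusted p = 3.4e-04), where 34.6% of 17202 genes were called and the median of all genes was -0.21. Macrophage markers separated these neutrophil groups in the same direction, summing to 3879 to 5987 normalised CPM in 2208L and 332 to 674 in T11. Their part in the difference was not tested.

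Thbs1 in neutrophils was lowest in T11, then 2208L and E0771, and highest in AT3 tumours. T11 neutrophils held 65.8, 63.9 and 108.5 normalised CPM, 2208L 116, 166.5 and 178, E0771 536, 821 and 915, and AT3 1301, 3801 and 2207. No neighbouring groups overlapped. Per kilobase, Thbs1 in T11 neutrophils was 7.72 to 16.35 times the level of the silent receptor genes. The groups differed by edgeR's F test (BH-adjusted p = 2.9e-08), where 33.4% of genes were called. With levels per 1e6 of all counts in place of the scaled ones, the lowest group was 2208L instead of T11, at 89.2 against 121.

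AT3 neutrophils exceeded those of 2208L by 4.04 ± 0.56 (log2, SE; edgeR BH-adjusted p = 5.2e-06; 7.88% of genes called). E0771 neutrophils exceeded those of T11 by 3.14 ± 0.55 (edgeR BH-adjusted p = 4.3e-04; 3.38% called). Both pairs were added after the values were seen, and they cross the strain labels except for E0771 replicate 1, without which the E0771 difference was 3.34. The other pairs did not pass, at 1.62 ± 0.51 for AT3 against E0771 (edgeR BH-adjusted p = 0.058; 4.55% called) and 0.71 ± 0.52 for 2208L against T11 (edgeR BH-adjusted p = 0.27). The 95% interval of the latter ran from -0.30 to 1.72. The AT3 difference passed without AT3 replicate 1, at 1.91 (edgeR BH-adjusted p = 0.0010), and by DESeq2 (1.66, adjusted p = 5.4e-04). That library held the lowest neutrophil markers of its group, 5460 against 12560 and 20310 normalised CPM.

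Platelet transcripts, a known source of thrombospondin 1 in blood, were measured beside these values. The 8 platelet markers summed to 89 to 271 normalised CPM in AT3 and 95.4 to 145 in E0771 neutrophils, against 37.6 to 44.4 in 2208L and 55.9 to 75.0 in T11. Without Pf4 these ranges were 34.3 to 115, 62.2 to 82.2, 29.6 to 39.6 and 51.7 to 73.4, so AT3 and E0771 neutrophils overlapped T11. In macrophages the sums of all 8 were 344 to 534, 330.5 to 830, 26.4 to 56.8 and 28.4 to 39.6, in the same order. Most of the AT3 and E0771 macrophage sums was Pf4. Without it the other 7 markers summed to 47.1 to 67.1 in AT3, 66.3 to 96.8 in E0771, 22.3 to 45.5 in 2208L and 8.17 to 17.1 in T11 macrophages, while Thbs1 was at 6198 in AT3 and 710 in E0771. No platelet marker was at 0 in all libraries of AT3 or E0771, and their part in the Thbs1 level was not tested.

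Between the cell types of a tumour, Fn1 was higher in macrophages in 3 of 4 tumours by edgeR's test. These include AT3 and E0771, whose libraries also guided its choice. Thbs1 was higher in 1 of 4. For Fn1 the macrophage minus neutrophil difference was 3.72 ± 0.64 in E0771 tumours and 3.37 ± 0.62 in AT3 tumours (log2, SE; edgeR, BH-adjusted p = 2.5e-05 for each), where 18.4% and 51.9% of 19056 genes were called. The libraries of these tumours also guided the choice of Fn1, by another contrast, so these p-values are not free of that choice. In the remaining tumours the values were smaller. The Fn1 difference was 1.82 ± 0.59 in T11 tumours (edgeR BH-adjusted p = 0.0068; 68.5% of genes called). In 2208L tumours it was 1.68 ± 0.58 and did not pass (edgeR BH-adjusted p = 0.057; 9.12% called), although no macrophage library overlapped a neutrophil library. The median of all genes was -0.61 in T11, -0.50 in AT3, -0.16 in E0771 and -0.10 in 2208L, so relative to it Fn1 stood 2.42, 3.88, 3.88 and 1.78 higher.

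These Fn1 differences moved with the scaling and with single libraries. With DESeq2's size factors in edgeR the T11 value was 1.25, which passed, and in DESeq2 itself it was 1.25 with an adjusted p of 0.067. Without T11 neutrophil replicate 1, which held 523 normalised CPM against 118 and 177, the T11 value was 2.64. Without E0771 macrophage replicate 3 the E0771 value was 2.12 (edgeR BH-adjusted p = 0.0087).

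For Thbs1 the macrophage minus neutrophil difference passed in AT3 tumours, at 1.28 ± 0.43 (log2, SE; edgeR BH-adjusted p = 0.013). It did not pass without AT3 neutrophil replicate 1, nor with DESeq2 (0.99, adjusted p = 0.062). In the other tumours the values were -0.21 ± 0.45 for T11, 0.02 ± 0.44 for 2208L and -0.15 ± 0.43 for E0771, with 95% intervals of -1.10 to 0.68, -0.84 to 0.88 and -0.99 to 0.69. The macrophage and neutrophil libraries overlapped in each of those 3 tumours. Without E0771 macrophage replicate 3 the E0771 value was -1.13 and did not pass.

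**Figure D3:**
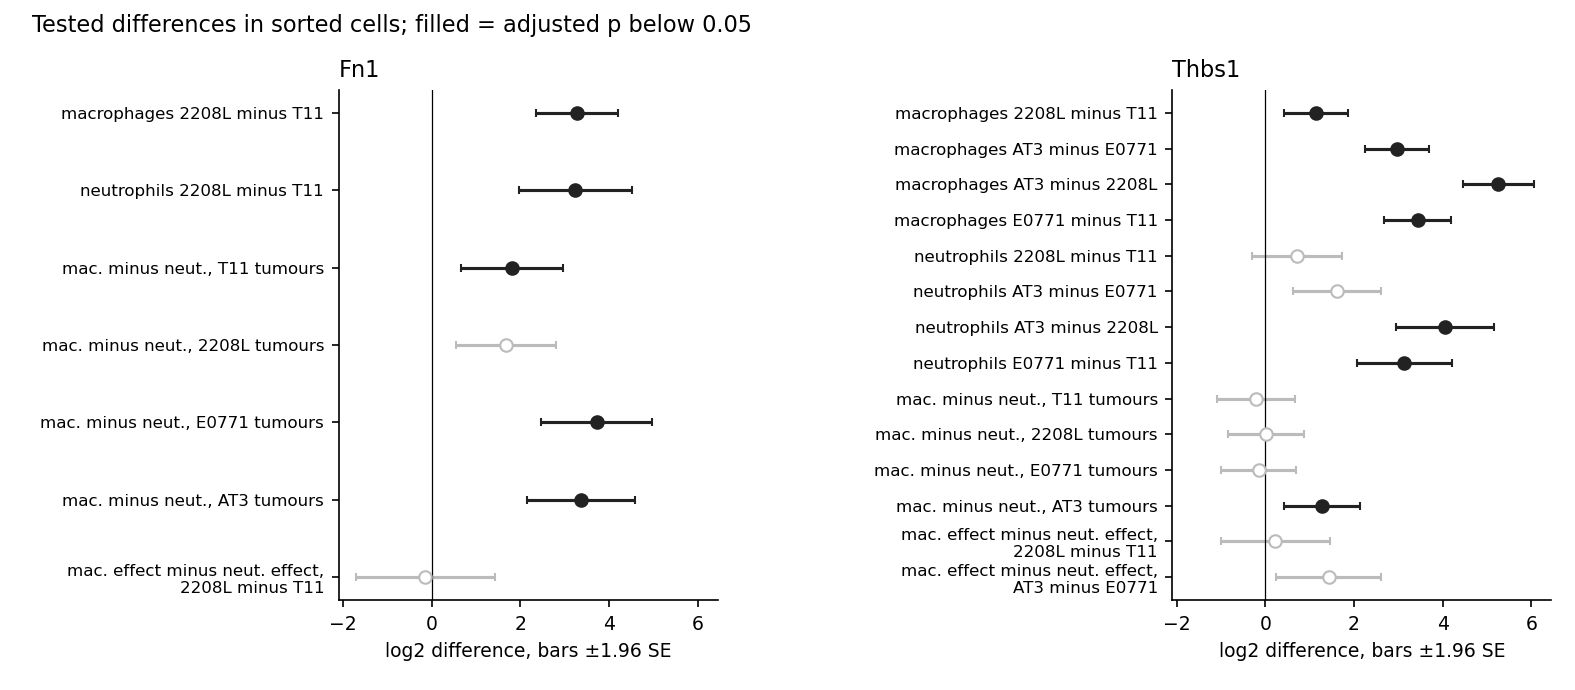
Log2 differences in sorted cells with their 95% intervals for Fn1 (left) and Thbs1 (right), from edgeR fits. Filled points have a BH-adjusted p below 0.05 and open points do not. For Fn1, 5 of the 7 differences shown are filled. Among them, the macrophage minus neutrophil values of AT3 and E0771 use libraries that also guided the choice of Fn1. The Thbs1 macrophage minus neutrophil values of T11, 2208L and E0771 lie close to 0.

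Whether the tumour difference itself depended on the cell type was tested with an interaction term. For Fn1 the 2208L minus T11 difference in macrophages minus that in neutrophils was -0.14 ± 0.80 (log2, SE; edgeR BH-adjusted p = 0.91), with a 95% interval of -1.71 to 1.43 and 27.6% of genes called. For Thbs1 it was 0.23 ± 0.63 (edgeR BH-adjusted p = 0.81). The AT3 minus E0771 difference in Thbs1 was larger in macrophages by 1.43 ± 0.61, which did not pass (edgeR BH-adjusted p = 0.19; 2.06% of genes called). It passed without E0771 macrophage replicate 3 (2.4, edgeR BH-adjusted p = 0.018) and without AT3 neutrophil replicate 2 (1.90, edgeR BH-adjusted p = 0.0496). The AT3 minus E0771 interaction for Fn1 is given no test, because both contrasts guided its choice.

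The level in neutrophils relative to macrophages was set beside that of 10 macrophage markers of the same libraries. Fn1 in neutrophils was 26% of its macrophage level in T11, 31.7% in 2208L, 7.27% in E0771 and 9.19% in AT3 tumours. The single markers ranged from 2.97% to 55.8% in T11, 23.7% to 38.5% in 2208L, 6.00% to 27.5% in E0771 and 7.01% to 25.8% in AT3, so Fn1 lay inside the range in each tumour. The top of the T11 range was Mertk. Marker medians were 10.1%, 27.4%, 13.2% and 14.3% in the same order, so Fn1 lay above the median in T11 and 2208L and below it in E0771 and AT3. Thbs1 was at 106%, 100%, 107% and 39.3% and lay above the highest marker in each tumour. These percentages depend on the scaling. Without the trimmed mean scaling, mean Thbs1 was 191 in neutrophils against 70.0 in macrophages of T11 tumours. It was 207 against 167 in 2208L, 1428 against 880 in E0771 and 3530 against 5242 in AT3 tumours. Macrophage RNA in the neutrophil sorts was not estimated, and its part in either level was not tested.

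**Figure D4:**
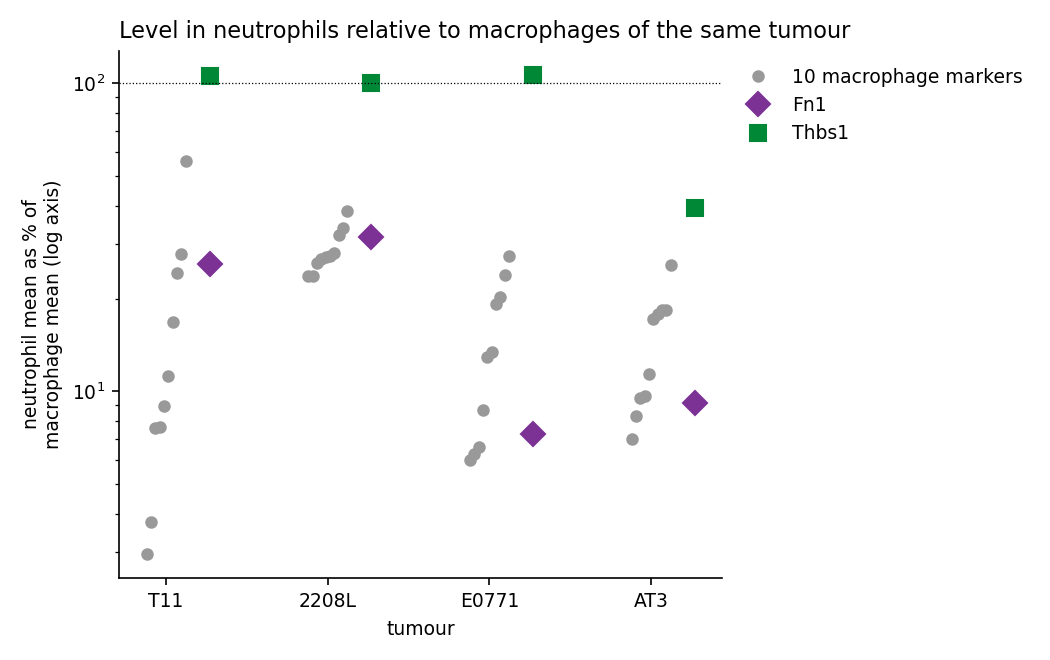
Mean normalised CPM in neutrophils as a percentage of that in macrophages of the same tumour, on a log axis. The percentages depend on the trimmed mean scaling. Grey points are 10 macrophage markers, diamonds Fn1 and squares Thbs1, and the dotted line marks equal levels. Fn1 (7.27% to 31.7%) lies among the markers and Thbs1 (39.3% to 107%) above them.

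Fibronectin receptors in macrophages differed in both directions. Between 2208L and T11 macrophages, 4 of 18 genes for receptors and assembly factors were higher and 4 lower, where 8.46% and 8.37% of all genes were called in those directions (edgeR, BH-adjusted at 0.05). The list's median was 0.58 against 0.04 over all genes. Itgb5, an integrin beta chain that pairs with alpha v, was at 502.5 ± 138 normalised CPM in 2208L and 116 ± 25.5 in T11 macrophages. Itgb3, the other common partner of alpha v, was at 28.2 ± 8.44 against 219 ± 97.7, and Itgb7, a leukocyte homing integrin chain, at 16.6 ± 5.95 against 106 ± 8.46. Itgav itself was at 253 ± 43.8 against 1167 ± 158 and Itga5 at 200.5 ± 93.8 against 518 ± 168, so the alpha chains of the main fibronectin receptors were lower where Fn1 was higher. The higher count was 2 without T11 replicate 1 or with no filter on low counts.

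Between AT3 and E0771 macrophages, 6 of the 18 were higher and 3 lower, against 9.37% and 9.27% of all genes. Those higher were Itga5, Itgav, Itgb1, Itgb5, the urokinase receptor Plaur and Tgm2, a transglutaminase that binds fibronectin at the cell surface. Itgb5 differed by 2.27 ± 0.24 (log2, SE) and Tgm2 was at 1344 ± 132.5 against 348 ± 125 normalised CPM. Itgb3 was lower, at 8.73 ± 7.09 against 36.2 ± 16.2, and so was Fbln2 (-3.17 ± 0.46). Itgb5 was thus higher and Itgb3 lower in both pairs, on the side where Fn1 was high. The count of higher genes was 3 without AT3 replicate 1.

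In neutrophils, 8 of the 18 were higher and 3 lower in 2208L than in T11 (edgeR, BH-adjusted), where 19.6% and 15% of all genes were called. Tgm2, the syndecan Sdc4 and Itgb1 had the largest differences, at 2.27 ± 0.46, 1.59 ± 0.33 and 1.57 ± 0.32. Macrophage markers summed to 3879 to 5987 normalised CPM in these 2208L and 332 to 674 in these T11 neutrophils. Their part in these calls was not tested. In AT3 against E0771 neutrophils, Tgm2 was higher (1.63 ± 0.44) and the fibulins Fbln1 and Fbln2 were lower (-1.72 ± 0.38 and -2.43 ± 0.33), with 2.4% and 2.15% of all genes called. The Tgm2 call in that pair was lost with only these groups fitted, with a replicate block and without any 1 library but AT3 replicate 1.

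Among thrombospondin receptors and partners, the endocytic receptor Lrp1 was the most abundant in macrophages, at 6109 ± 1135 normalised CPM in AT3, 2185 ± 750 in 2208L, 1751 ± 313 in T11 and 1693 ± 375 in E0771. Comparing AT3 with E0771 macrophages, 4 of 13 genes were higher and 2 lower (edgeR, BH-adjusted; 9.37% and 9.27% of all genes), with the scavenger receptor Stab1 higher by 1.72 ± 0.25, Cd36 lower by 1.79 (log2; SE 0.39) and the syndecan Sdc1 at 14.9 ± 3.38 against 51.4 ± 4.54 normalised CPM. The higher count was 2 without AT3 replicate 1 or 3 and with only these groups fitted, and the lower count 1 without E0771 replicate 3. The Cd36 mean of E0771 macrophages, 205 ± 170, varied widely between libraries. Of the same 13, 5 were higher and 2 lower in 2208L than in T11 macrophages (8.46% and 8.37% of all genes), again with Sdc1 (-2.57 ± 0.30) and Cd36 among the lower. Cd47, the receptor through which thrombospondin 1 acts on leukocytes, was at 60.1 to 86.9 in the 4 macrophage groups and passed in neither pair.

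Between 2208L and T11 neutrophils, 10 of the 13 were higher and none lower, with a median of 1.28 against -0.21 over all genes and 19.6% and 15% of all genes called higher and lower. With only these groups fitted 2 were lower, and without 2208L replicate 1 it was 1. Calr, which encodes calreticulin, Lrp1 and Scarb2 differed by 2.56 ± 0.36, 1.93 ± 0.43 and 1.89 ± 0.32 (log2, SE), while Thbs1 itself did not pass there. The macrophage markers were also higher in these 2208L neutrophils (3879 to 5987 against 332 to 674 normalised CPM). Their part in the receptor differences was not tested. None was higher in AT3 than in E0771 neutrophils, and 2, Sdc1 and Scarb1, were lower (2.4% and 2.15% of all genes). Without AT3 replicate 1 the higher count was 2, and with DESeq2 it was 1. The lower count was 0 without E0771 replicate 2, and 1 without E0771 replicate 1 or 3 or AT3 replicate 3, with DESeq2 and with only these groups fitted.

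**Figure D5:**
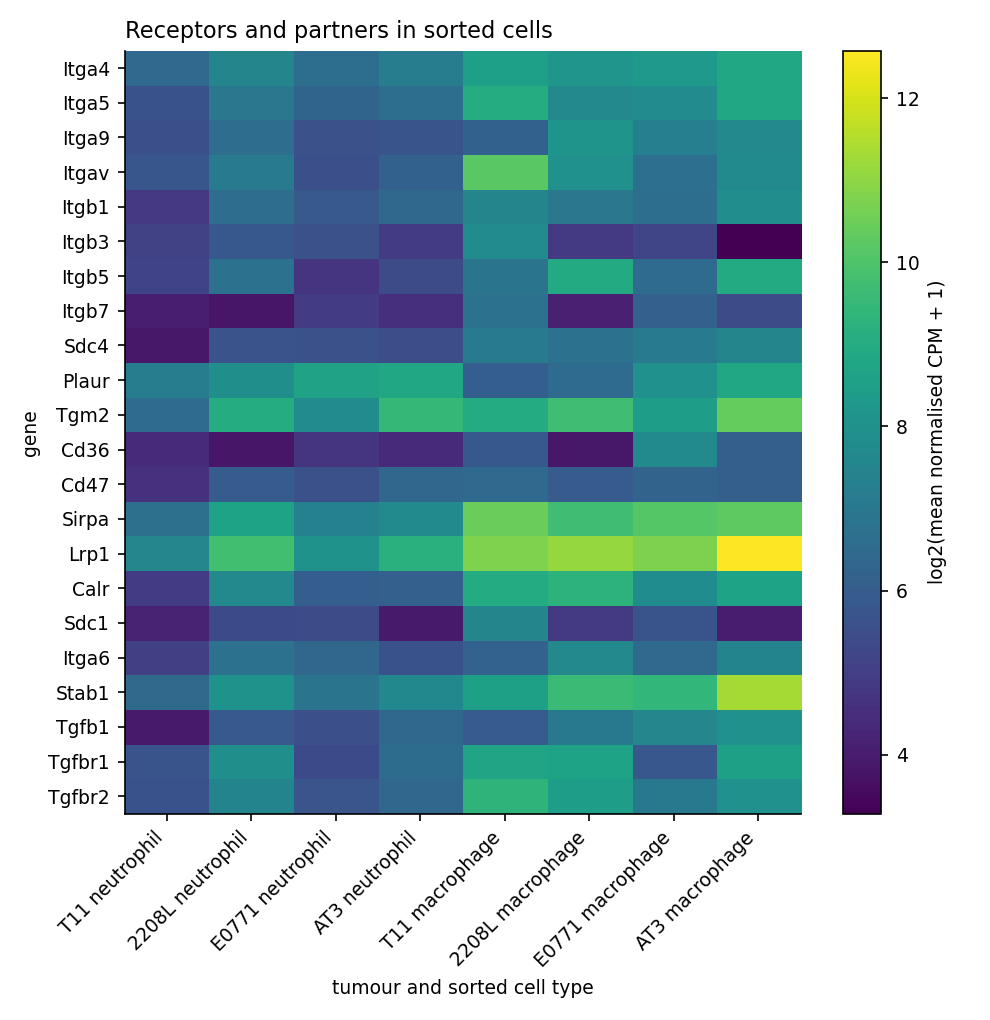
Levels of 22 receptors, partners and TGF-beta pathway genes in the 8 sorted groups, as log2 of mean normalised CPM plus 1 (colour scale). Lrp1 and Stab1 are brightest in AT3 macrophages (6109 and 2579 normalised CPM), Itgav in T11 macrophages (1167), and Itgb3 is darkest in AT3 macrophages (8.73).

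Of the other thrombospondins, Thbs2 was at 11.0 to 44.2 normalised CPM in the 8 sorted groups, Thbs3 at 5 to 25.5, Thbs4 at 4.79 to 22.8 and Comp at 2.93 to 17.5. Thbs2 was higher in 2208L than in T11 macrophages by 1.94 ± 0.52 (log2, SE; edgeR BH-adjusted p = 0.0079). In 2208L against T11 neutrophils, 1 of the 4 was lower and none higher, where 15% and 19.6% of all genes were called lower and higher. None of the 4 passed in AT3 against E0771 macrophages or neutrophils, where 18.6% and 4.55% of all genes were called. The Thbs2 call was lost without 2208L replicate 3, T11 replicate 1 or T11 replicate 2.

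Among genes of TGF-beta signalling in AT3 against E0771 macrophages, Pmepa1, a feedback inhibitor induced by TGF-beta, was at 210 ± 36.6 normalised CPM against 5.95 ± 3.44 (log2 4.91 ± 0.35; edgeR BH-adjusted p = 5.4e-11). Of 13 genes tested for TGF-beta ligands, latency and receptors, 4 were higher and 3 lower (9.37% and 9.27% of all genes). The receptor Tgfbr1, of that list, was at 374 ± 57.6 against 54.3 ± 30.5. Of 9 response genes tested, 3 were higher and 2 lower (9.37% and 9.27% of all genes), with Acta2 (-3.86 ± 0.66) and Ltbp2 (-1.66 ± 0.53) as the lower. Leaving out AT3 replicate 1 or 3 or E0771 replicate 1 or 2 left 1 lower. In 2208L against T11 macrophages, 6 of the 13 ligand, latency and receptor genes were higher and 1 lower (8.46% and 8.37% of all genes). The ligand gene Tgfb3 was at 41.3 ± 11.7 normalised CPM in 2208L and 13.5 ± 2.64 in T11 macrophages.

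Comparing 2208L with T11 neutrophils, 5 of 10 response genes were higher and none lower (19.6% and 15% of all genes), led by Pmepa1 (2.45 ± 0.31), Bhlhe40 (2.4 ± 0.47) and Skil (1.80 ± 0.37), a feedback repressor. The count was 3 without 2208L neutrophil replicate 2. The part of the higher macrophage markers of these 2208L neutrophils in the response genes was not tested. Comparing AT3 with E0771 neutrophils, 3 of 10, Id1, Pmepa1 and Skil, were higher (edgeR, BH-adjusted; 2.4% and 2.15% of all genes called higher and lower), with 1 on leaving out any E0771 library and 5 without AT3 replicate 1.

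Of YAP targets in 2208L against T11 macrophages, 5 of 9 tested were higher and none lower (8.46% and 8.37% of all genes), with Amotl1 (2.79 ± 0.40) and Arhgef17 (2.52 ± 0.49) leading, and 3 on leaving out 2208L replicate 2 or 3 or T11 replicate 2 or 3. In AT3 macrophages, where Thbs1 was highest, 2 of 9 were above E0771 (9.37% and 9.27% of all genes called higher and lower), the receptor kinase Axl (1.05 ± 0.26) and the ectonucleotidase Nt5e (2.21 ± 0.39). Cyr61 was lower in AT3 than in E0771 neutrophils (-1.31 ± 0.37) and none was higher, and that call was lost with DESeq2, with only these groups fitted and without any E0771 library or AT3 replicate 3.

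Of other matrix glycoproteins, Spp1 (osteopontin, a secreted phosphoprotein of macrophages) moved with Fn1 in all 4 pairs. It was at 6407 ± 2137 normalised CPM in 2208L against 545 ± 136 in T11 macrophages, and at 1549 ± 702 in AT3 against 65.9 ± 27.1 in E0771 macrophages. In neutrophils it was at 2000 ± 460 in 2208L against 70.6 ± 40.8 in T11, and at 277 ± 125 in AT3 against 65.7 ± 10.8 in E0771. The log2 differences were 3.66 ± 0.32, 4.37 ± 0.34, 4.59 ± 0.54 and 2.01 ± 0.49 (edgeR BH-adjusted p = 4.8e-10, 2.4e-10, 1.8e-07 and 0.016). Macrophage markers were higher on the same side in both neutrophil pairs, and their part in the Spp1 level was not tested. The rest of the list split by pair. Of 23 tested, 10 were higher and 1 lower in 2208L against T11 macrophages (8.46% and 8.37% of all genes). In the AT3 and E0771 pair 2 were higher and 8 lower (9.37% and 9.27% of all genes; 5 lower without AT3 replicate 2 or E0771 replicate 1).

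Collagens in macrophages were called in opposite directions in the pairs, although Fn1 was higher in the first group of both. In 2208L against T11 macrophages, 5 of 11 were higher and none lower (8.46% and 8.37% of all genes; median 1.53; 8 higher without 2208L replicate 1), led by Col4a1 (2.68 ± 0.36), Col18a1 (2.68 ± 0.29) and Col4a2 (2.42 ± 0.36), all of basement membranes. In AT3 against E0771, 1 was higher and 7 lower (9.37% and 9.27% of all genes; median -1.28), with 4 lower on leaving out AT3 replicate 2. The higher was Col3a1, at 189 ± 35.6 against 58.3 ± 3.74 normalised CPM. Col3a1 was also the collagen of highest level in the AT3 line, at 1519 to 1970 normalised CPM, while the line's Fn1 was at 624 and its Thbs1 at 83.8. Krt8 was at 0 in 2 AT3 macrophage libraries and at 1.71 in the third, but the AT3 line itself held only 19.0 to 23.2. Of the crosslinking enzymes, Plod1 and P4ha1 were higher in AT3 than in E0771 macrophages (1.09 ± 0.25 and 1.79 ± 0.27) and Loxl1 and Loxl2, named after their values were seen, were lower. No crosslinking gene was lower without AT3 replicate 1 or 2 or E0771 replicate 2.

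Monocyte genes were measured because the macrophage gate could hold recently arrived monocytes. Comparing AT3 with E0771 macrophages, 2 of 12 were higher and 5 lower (edgeR, BH-adjusted; 9.37% and 9.27% of all genes), with a median of -1.71. The higher genes, named after their values were seen, were the chemokine receptor Ccr2 (863 ± 288 against 96.7 ± 73.6 normalised CPM) and F13a1 (610 ± 308 against 270 ± 189, overlapping). The count of higher genes was 1 without AT3 replicate 1 or 3 or E0771 replicate 1 or 2, and with DESeq2. The log2 differences of Plac8 and Ms4a4c were -5.56 and -3.22. Within E0771 macrophages the 6 monocyte markers summed to 286, 442.5 and 881, highest in replicate 3, as Fn1 was. In AT3 macrophages the same 6 summed to 1272 to 1686, above every E0771 library. Most of that sum was Ccr2 and F13a1, with means of 863 and 610, while Plac8, also of the 6, was lower in AT3. Their part in the Fn1 and Thbs1 levels was not tested.

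Over the 8 sorted groups, the correlation between Fn1 and Thbs1 in log2 means was 0.428, against 0.935 over the lines. Among 4845 genes with a comparable range, those most like Fn1 were Pfkl (0.954), the liver-type phosphofructokinase, Cmklr1 (0.951), the chemerin receptor, Add3, a membrane skeleton protein, Anxa3, an annexin, and Tcn2, the carrier of vitamin B12 (each 0.948). Those most like Thbs1 were Cd300ld (0.969), an immunoglobulin-like receptor of myeloid cells, Klf2 (0.947), a transcription factor, B3gnt3 (0.942), a glycosyltransferase, Sirpb1b (0.937), a signal regulatory protein, and Klra2 (0.933), a lectin-like receptor. Cmklr1 ranged from 18.4 normalised CPM in T11 neutrophils to 608 in AT3 macrophages, and Cd300ld from 31.4 in T11 neutrophils to 586 in AT3 macrophages. The 8 points are means of libraries that share 4 tumours and 2 sorts, and 4845 genes were ranked, so the order is a description. With a pseudocount of 10 in place of 1, 3 of the 5 Fn1 genes and 4 of the 5 Thbs1 genes were again among the first 5.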

How the data were processed

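The authors deposited 1 table of raw read counts per gene symbol for 48 libraries. The submitters' processing notes name bcl2fastq 2.17, STAR 2.4.2a and the mm10 build. Libraries held total RNA and followed a protocol credited to Sheng and colleagues, per the labels. The counting program, its annotation and its strand setting are not given in the sources used here. By elimination, the columns named PyMTE were assigned to PyMT-N.

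Rn45s was removed before scaling and before every fit, since its share differed between the cell types. Levels are counts per 1e6 outside Rn45s after edgeR's trimmed mean of M values over all 48 libraries. Tests were edgeR 4.0.16 (glmQLFit and glmQLFTest, R 4.3.3), with filterByExpr (at least 10 counts and a total of at least 15), in fits of 12 neutrophil, 12 macrophage, 24 sorted and 24 line libraries. P-values were adjusted by Benjamini-Hochberg across every gene of a fit, and genes were called below 0.05. DESeq2 1.42.0, its size factors in edgeR, no filter, Rn45s kept, a replicate block, fits of the compared groups only and 72 leave-one-out fits were the alternatives. The scripts were tested on simulated counts. No library pair of a group held identical counts, and same-group pairs differed by more than counting noise (chi-square per degree of freedom 1.21 to 10.7 over 48 pairs).

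The members and the gene lists were chosen with earlier results of these data known, and comparisons that share a group of libraries are not independent of each other. From each list, up to 3 genes that passed with a mean log2 CPM of at least 4 were named, by largest absolute difference. All members of the receptor lists could be named where levels are given. The 5 genes most like each member were taken by Pearson correlation of log2(CPM + 1) group means, among named genes with a highest mean of at least 30 CPM and a range of at least 2 log2 units. The pairs AT3 against 2208L and E0771 against T11 were added after seeing the values. Exon lengths and coordinates came from GENCODE M21, which matched 22750 of the 24054 symbols. A few list genes that the naming rule would take are not reported here.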

Additional observations from a re-analysis of the deposited data

How the results depend on the processing

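Fn1 in 2208L against T11 kept its direction and its call in both cell types under every alternative run, as did Thbs1 in AT3 against E0771 macrophages. Among named list genes, 162 values missed the threshold under an alternative and 3397 did not, and 323 of the list counts moved by more than 1.5 times, against 2557 that did not.

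With DESeq2, Thbs1 was 1.22 (2208L minus T11 macrophages, adjusted p = 0.117), 1.66 (AT3 minus E0771 neutrophils, 5.4e-04) and 0.99 (macrophages minus neutrophils in AT3 tumours, 0.062), and Fn1 was 1.25 (macrophages minus neutrophils in T11 tumours, 0.067). With only the compared groups fitted in edgeR, Thbs1 was 0.67 in 2208L minus T11 neutrophils (adjusted p = 0.036) and 0.99 between the AT3 cell types (0.14), and Fn1 was 1.55 between the 2208L cell types (0.0012), against 1.70 (0.049) with no filter. Thbs1 in AT3 minus E0771 neutrophils was 1.65 with Rn45s kept (edgeR adjusted p = 0.041). Uncalled values changed sign for Thbs1 between the 2208L cell types (-0.11 with DESeq2, with its size factors and with only those groups, -0.01 with Rn45s kept) and for the Fn1 interaction of 2208L and T11 (0.29 with DESeq2 and with its size factors). Size factors also moved Thbs1 between the T11 cell types to -0.81. Genes called with only the compared groups were 284 against 782 (AT3 minus E0771 neutrophils), 6534 against 9886 (AT3 cell types) and 234 against 392 (the AT3 and E0771 interaction, 681 with DESeq2). The cause was not tested.

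Leaving out 1 library gave Thbs1 values of 0.82 to 1.57 (2208L minus T11 macrophages), 1.17 to 1.91 (AT3 minus E0771 neutrophils), and, between cell types, -0.76 to 0.05 (T11), -0.20 to 0.15 (2208L), -1.13 to 0.16 (E0771) and 1.00 to 1.70 (AT3). Interactions ranged from -0.96 to 0.22 for Fn1 (2208L and T11), and for Thbs1 from -0.06 to 0.78 (2208L and T11) and 1.14 to 2.4 (AT3 and E0771). The Fn1 ratio of AT3 to E0771 macrophages ranged from 16.9 to 68.5. Genes called ranged from 1561 to 2481 and 1461 to 2857 in macrophages (2208L minus T11, AT3 minus E0771), 3400 to 4994 and 209 to 2692 in neutrophils, 3759 to 7900 for any neutrophil difference, 796 to 2109 and 2183 to 3543 between 2208L and E0771 cell types, and 121 to 689 for the AT3 and E0771 interaction.

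Column names give the macrophage and neutrophil libraries of a replicate the same number. Whether that marks a shared mouse is not stated in the sources used here. No comparison had all same-number correlations above 0.1 (range -0.245 to 0.237), a check on 3 libraries a group that cannot exclude pairing. In AT3 tumours all 3 macrophage libraries correlated best with the neutrophil library of their own number. That held for 1, 1 and 0 libraries in T11, 2208L and E0771 tumours. Between different tumours, it also held for all 3 AT3 neutrophil libraries against E0771 neutrophils. In the other pairs of tumours it held for 0 to 1 libraries. The main tests did not pair libraries. The replicate block gave each number 1 effect shared by all tumours of a fit. It therefore could not represent the mice of a tumour and does not settle pairing within a tumour. With that block no call of Fn1 or Thbs1 changed. Thbs1 was 1.17 in 2208L minus T11 macrophages (edgeR adjusted p = 0.032) and 1.58 in AT3 minus E0771 neutrophils (0.10). Fn1 was 3.33 in 2208L minus T11 neutrophils (0.0016). Depth limits the neutrophils most, with 470712 to 1185233 counts outside Rn45s.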
